A study of Mus musculus with 214 samples.

Results

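Livers of WT mice taken 5 days after the second dose of N-nitrosodimethylamine (NDMA) were compared with livers of saline-treated WT mice of the same age, across every gene with a mean of at least 5 normalized counts. The members are all WT samples labelled day 5, 15 of the 213 samples of the series with values, of which 8 had received NDMA and 7 saline. The NDMA mice received intraperitoneal injections of 3.5 mg/kg when 8 days old and of 7 mg/kg when 15 days old, the controls received saline at the same ages, and all were 20 days old at collection. NDMA and saline mice alike were on a C57BL6 background with the genotype RaDR+/+;GPT+/+, that is, both carried the fluorescent RaDR reporter of homologous recombination and the GPT mutation reporter, and WT here means that Mgmt is intact. The remainder of the series consists of WT livers at other times and of Mgmt-/- livers. The study's methods assign litters to saline or NDMA and also say that controls were littermates and that separate litters were used where possible. The labels do not give the litter, so its part was not tested. Each library is the RNA of 1 mouse, sequenced as 3′ digital gene expression (3′DGE), in which reads come from the 3′ end of polyadenylated transcripts.

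NDMA is inert until pericentral hepatocytes oxidize it, mainly by Cyp2e1, to a species that methylates DNA. Mgmt removes the methyl group from the oxygen of guanine, and lesions that persist engage mismatch repair and the p53 response, whose target Cdkn1a halts the cell cycle. Hepatocytes are zoned along the lobule, with drug metabolism and glutamine synthesis around the central vein and urea synthesis around the portal tract, and they make cholesterol under the control of sterol-sensing transcription factors of the SREBP family. MHC class II molecules are chiefly made by macrophages, dendritic cells and B cells and respond to interferon gamma through the transactivator Ciita. Bulk RNA cannot tell fewer cells of a type from less RNA per cell.

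Libraries held between 202626 and 2131042 reads assigned to genes, and genes with at least 1 read from 8068 to 13169. Depth moved with treatment, with a median of 950371 reads in NDMA and 1506105 in saline libraries. In males the depths did not overlap, since the 4 NDMA libraries held 944166 to 1527319 reads and the 3 saline libraries 1601666 to 2131042. The 7 males were all in the batch 200710Eng and the 8 females (4 NDMA, 4 saline) all in 200724Eng, which makes batch and sex a single term of the fit whose parts cannot be told apart. No library of the 15 went against its labelled sex, and the summed level of 10 hepatocyte markers, of which Alb was the most abundant, was between 162090 and 315050 normalized counts in NDMA and between 153870 and 362490 in saline livers.

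The saline female with replicate name D215012 went against its label. Each library was placed between the fitted saline level (0) and the fitted NDMA level (1) of its sex over the genes called when it was left out of the fit. The other 6 saline libraries lay between -0.21 and 0.22, and the 8 NDMA libraries between 0.47 and 1.20. D215012 lay at 0.85, inside the NDMA range, and in it 86.4% of the 572 genes called without it were nearer to the NDMA level. It held 109 normalized counts of Cdkn1a, 117 of Cox6b2 and 53.6 of Ubd, but 0 of Cbr3, whose values in NDMA livers ran from 6.61 to 28.8 (median 16.04). All groups follow the labels and D215012 stayed with saline, and many counts and fold changes are also given without this library, a removal prompted by its values. The NDMA female D215014 was the shallowest library, with 202626 reads, and lay at 0.47.

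**Figure D1:**
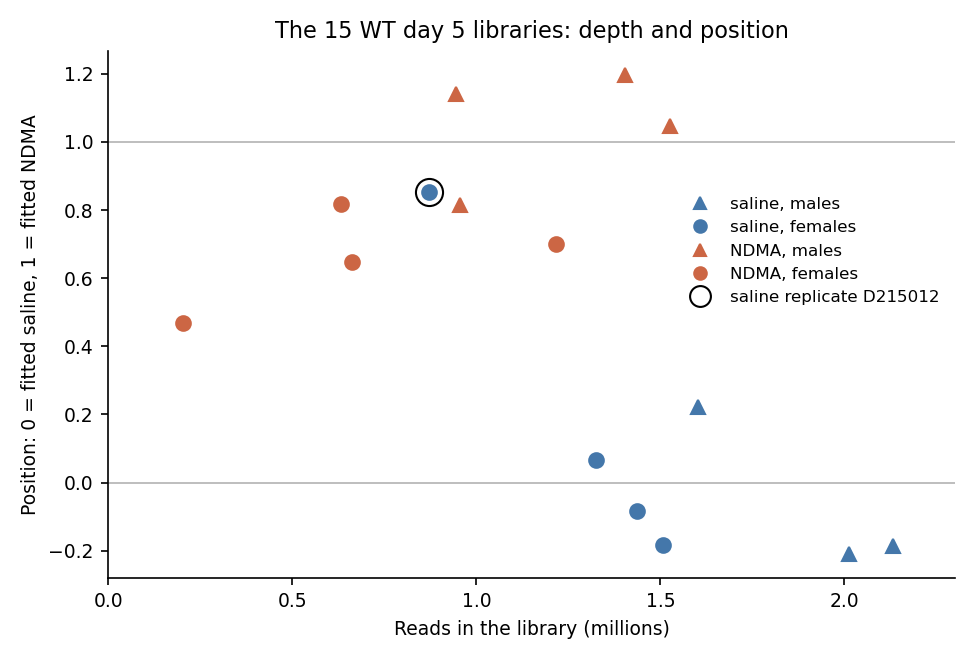
Reads per library (x axis) against the position of each of the 15 libraries between the fitted saline level (0) and the fitted NDMA level (1) of its sex (y axis, no unit); triangles are males and circles females, blue saline and orange NDMA. The ringed saline library D215012 sits at 0.85 among the NDMA libraries, and the other 6 saline libraries lie between -0.21 and 0.22 with at least 1324238 reads each.

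Of 8654 genes tested, 192 (2.22%) were higher and 120 (1.39%) lower in NDMA than in saline livers, called at a Benjamini-Hochberg adjusted p under 0.05 from limma and an absolute log2 fold change over 0.58. At an unadjusted p under 0.05 from limma 791 were higher and 758 lower. Fold changes are on the log2(normalized count + 1) scale, which understates the change of low genes, and the median over all genes tested was -0.07. Without D215012, 342 genes (3.95%) were higher and 230 (2.66%) lower, and these held 311 of the 312 calls made with it. The values of the 8 NDMA and 7 saline libraries did not overlap for 19 genes (0.22%) that were higher and 4 (0.0462%) that were lower, and for 120 (1.39%) and 66 (0.763%) once D215012 was left out. With edgeR on the recovered reads 267 genes were higher and 362 lower (7.27% in all), so that 42.4% of calls were higher against 61.5% with limma. With log2 of the reads per library as a term, 33 genes were higher and 7 lower. The number of calls depended on single libraries: it fell to 116 without the saline male D202009, to 131 without D202010, to 163, 176 and 204 without the NDMA males D202013, D202014 and D202015, and to 186 without the saline female D215010, and rose to 794 without D215014. Of 94 named called genes 55 were called in each of the 15 removals of a library and 28 lost their call in 6 or more.

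Genes of the p53 response were among those that rose. Of 15 tested p53 targets of arrest and feedback, 8 were called higher and none lower, with a median log2 fold change of 1.28 against -0.07 over all genes. Cdkn1a (chr17:29090976-29100727), the inhibitor of cyclin-dependent kinases through which p53 stops the cell cycle, held 95.8 to 435 (median 166) normalized counts in NDMA livers and from 1.63 to 109 (median 9.54) in saline livers. Every NDMA liver was above every saline liver but D215012, whose 109 lay inside the NDMA range. The means were 184 ± 107 against 22.9 ± 38.4 (SD, n = 8 and 7), and the log2 fold change was 3.98 (SE 0.623, adjusted p = 0.00346), or 4.48 without D215012. Ccng1, the cyclin G1 that takes part in feedback on p53, ran from 29.5 to 79.1 (median 62.3) with NDMA and from 6.24 to 68.7 (median 10.6) with saline. Apart from D215012 at 68.7, the highest saline value was 27.7, under the lowest NDMA value. Its log2 fold change was 2.00 (SE 0.385, adjusted p = 0.00687).

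Phlda3, which restrains Akt signalling, rose by 2.94 on the log2 scale, and Trp53cor1, the non-coding RNA next to Cdkn1a also known as lincRNA-p21, by 3.02. Trp53cor1 had no reads in 5 of the 7 saline livers, and its highest value there apart from D215012 was 0.814 against a median of 14.9 with NDMA. The other called targets were Gdf15 (2.04), a secreted stress cytokine, the antiproliferative Btg2 (1.57), the kinase Plk2 (1.54) and Trp53inp1 (1.15). Mdm2, the ubiquitin ligase of p53, was at 0.29 (adjusted p = 0.821) and did not pass, nor did Zmat3 at 1.28 (adjusted p = 0.17) or Sesn1 at -0.18 (adjusted p = 0.842). Among 7 tested p53 targets of cell death only Bax was called, a pore former of the mitochondrial membrane, at 1.40 (SE 0.312, adjusted p = 0.0156). Its call was lost in 2 of the 15 removals of a library, without D202009 and without D202010, where the adjusted p reached 0.0566. The arrest list had 8 genes called without D215012, by edgeR and in males alone, 4 without D202009 and 1 with log2 reads as a term. With that term Cdkn1a stood at 3.13 (adjusted p = 0.0876).

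The adduct repair gene itself rose. Mgmt (chr7:136894614-137130266) held 45.9 to 90.2 (median 70.0) normalized counts with NDMA and from 13.4 to 77.1 (median 28.1) with saline. Without D215012, at 77.1, the highest saline value was 35.0, below every NDMA liver. The log2 fold change was 1.25 (SE 0.275, adjusted p = 0.0145), and 1.48 without D215012. It passed in each of the 15 removals of a library, and was at 0.96 (adjusted p = 0.159) with log2 reads as a term. None of the other 12 tested genes of direct reversal and base excision repair passed, with Mpg, the glycosylase that removes methylated adenine, at 0.31 (adjusted p = 0.706) and Polb at 0.27 (adjusted p = 0.522). With limma no gene was called among 11 of mismatch repair (1 higher and 1 lower at an unadjusted p under 0.05), 13 of break repair and damage signalling (1 lower) or 4 of translesion synthesis (none). Of all 8654 genes tested 791 were higher and 758 lower at that unadjusted p. By edgeR the break repair list had 1 call, lower, and the others none, and DESeq2 called 1 gene lower in each of the mismatch and break repair lists.

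MHC class II presentation rose nearly as a whole. Of 8 tested genes 7 were called higher, with a median of 1.67, and the same number was called without D215012 and by edgeR, 8 in males alone, 6 without D202009 and 6 with log2 reads as a term. H2-Aa (chr17:34282744-34287823), the alpha chain of the I-A molecule, held 249.8 to 718 (median 448) normalized counts in NDMA livers and from 35.0 to 367 (median 81.1) in saline livers. Only D215012, at 367, overlapped the NDMA range, and the next saline value was 121. The means were 475 ± 167 against 112 ± 117 (SD, n = 8 and 7), with a log2 fold change of 2.51 (SE 0.352, adjusted p = 0.00198), or 2.81 without D215012. Cd74, the invariant chain that guides class II molecules to endosomes, ran from 34.7 to 148 (median 67.7) against 7.06 to 40.2 (median 11.7), with a log2 fold change of 2.29 (SE 0.32, adjusted p = 0.00195), or 2.53 without D215012. The NDMA and saline values of Cd74 overlapped through D215012 alone.

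The beta chains H2-Ab1 (1.91) and H2-Eb1 (1.73), the peptide editors H2-DMa (1.60) and H2-DMb1 (1.61) and the endosomal protease Ctss (1.10) completed the called members. Ifi30, a thiol reductase of the same compartment, was at 0.46 (adjusted p = 0.224). Of 18 class I pathway genes 3 were called, with a median of 0.17. They were Psmb9, whose NDMA values ran from 161 to 228 (median 203) and its saline values from 51.3 to 136 (median 65.9) without overlap in any of the 15 libraries, Psmb8 (1.21) and H2-T22 (1.01). Psmb9 and Psmb8 are among the catalytic subunits of the immunoproteasome, which replaces the standard proteasome under interferon. The log2 fold change of Psmb9 was 1.38 (SE 0.188, adjusted p = 0.00195). The 32 subunits of the constitutive proteasome had a median of 0.00, and none was called by limma, edgeR or DESeq2. With limma 3 were higher and 1 lower at an unadjusted p under 0.05, against 791 and 758 of all 8654 genes. Psmb1 was at 0.44 (adjusted p = 0.0892).

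Promoter letters are shown for called members, H2-Aa and H2-Eb1 of class II and Gbp2 and Bst2 of the interferon-responsive lists. RefSeq promoters (GRCm38.p6, 250 bases before the start) were searched on both strands for the Y box CTGATTGG, which contains the complement of CCAAT, and for the interferon-stimulated response element (GAAA, any 2 bases, GAAA again). The Y box was present in 3 of 9 class II genes with a window, against 4.43% of 27025 promoters and 6.34% of those of genes tested, and in 6 of 18 class I and 6 of 17 cholesterol synthesis genes. The response element was present in all 5 guanylate binding protein genes and 10 of 25 type I interferon effectors with a window, against 3.46% of promoters. A match describes letters only, and their absence from a window says nothing about a factor. In the stretches below, written 5′ to 3′ on the strand of the gene, capitals mark the motif or its complement.
H2-Aa, chr17:34287847-34287894, minus strand: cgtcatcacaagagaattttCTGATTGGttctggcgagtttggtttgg
H2-Eb1, chr17:34305785-34305832, plus strand: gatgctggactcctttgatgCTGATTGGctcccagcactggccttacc
Gbp2, chr3:142620584-142620633, plus strand: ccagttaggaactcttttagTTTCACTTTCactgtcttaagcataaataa
Bst2, chr8:71537567-71537622, minus strand: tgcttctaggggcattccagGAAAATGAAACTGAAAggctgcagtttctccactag

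Interferon-responsive genes rose only in part. Among 25 tested type I interferon effectors 3 were called higher, with a median of 0.56, against 6 without D215012 and 6 by edgeR. They were Slfn2 (1.57, adjusted p = 0.00523), Ifi27l2a (1.49, adjusted p = 0.00523) and Bst2 (0.70, adjusted p = 0.0218), the membrane tether of budding viruses, whose promoter stretch is printed above. Bst2 held 239 to 342 (median 270.2) normalized counts with NDMA and from 112 to 283 (median 168) with saline, and its call was lost in 4 of the 15 removals, those of D202009, D202010, D202013 and D215010, with an adjusted p of up to 0.0838. Isg15, a ubiquitin-like modifier, was at 1.12 (adjusted p = 0.127) and Ifit1 at 0.56 (adjusted p = 0.306). Of 7 guanylate binding proteins, GTPases of cell-autonomous defence, Gbp2 alone was called (1.22, adjusted p = 0.0131), and the list median was 0.87. Of 8 immunity related GTPases Gm12250 alone was called (2.01, adjusted p = 0.00273), which RefSeq lists as the protein-coding gene Irgb10 and GENCODE vM21 as a processed pseudogene and which may share reads with its relatives, while Irgm1 was at 0.17 (adjusted p = 0.666). None of 16 STAT and IRF factors was called by limma and 1 was by edgeR and by DESeq2. At an unadjusted p under 0.05 with limma 3 of the 16 were higher, against 791 of all 8654 genes. Zbp1, a sensor of left-handed nucleic acid, rose by 1.54 and Samhd1, which degrades deoxynucleotides, by 1.00, 2 of 12 nucleic acid sensors and nucleases. Without D215014 4 of the 12 were called and without D202009 1. The call of Samhd1 was lost in 2 of the 15 removals, those of D202009 and D202013, with an adjusted p of up to 0.0729.

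Chemokines had 4 of 11 tested genes called higher and a median of 1.07, with 7 called without D215012 and 2 with log2 reads as a term. Cxcl9, an interferon gamma-induced ligand of Cxcr3 on T cells, held 22.5 to 139 (median 83.3) normalized counts with NDMA and from 4.07 to 53.6 (median 14.0) with saline. The lowest NDMA value, in a male, lay inside the saline range, which without D215012 ended at 25.9. Its log2 fold change was 2.22 (SE 0.345, adjusted p = 0.00273). Ccl6 (1.82), Ccl5 (1.74) and Ccl24 (1.18) were the other called chemokines, while Cxcl10, also a Cxcr3 ligand, was at 1.29 (adjusted p = 0.0894) and Cxcl12 at -0.70 (adjusted p = 0.157).

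Some markers of immune cells rose as well, of which Ccl5 also counts among the chemokines and Ctss among the class II genes. Of 10 tested T and NK cell markers 4 were called higher, with a median of 1.38: the T cell receptor subunits Cd3d (2.39) and Cd3g (1.38), the granule protein Nkg7 (1.38) and Ccl5. The calls of Cd3g and Nkg7 were lost in 10 and 8 of the 15 removals, and of the 10 markers 5 were called without D215012, 2 without D202009 and with log2 reads as a term none. Summed over the 21 markers measured, of which Ccl5 was the most abundant, the level was 130.1 to 325 normalized counts with NDMA, 46.4 to 125 in 6 saline livers and 223 in D215012. Of 18 tested macrophage and Kupffer cell markers 4 were called higher, with a median of 0.70, against 6 without D215012 and 8 without D215014. They were Lyz2, the lysozyme of macrophages (1.33, adjusted p = 0.00346), the scavenger protein Cd5l (1.18, adjusted p = 0.00385), the pore former Mpeg1 (1.18, adjusted p = 0.0108) and Ctss. Clec4f (0.06, adjusted p = 0.924) and Timd4 (0.39, adjusted p = 0.534) were among the members that did not pass. The log2 fold change was positive for all 18. The macrophage sum, with Lyz2 as its most abundant gene, was 1896 to 3008 with NDMA, 744 to 1939 in 6 saline livers and 2594 in D215012. No marker of either list was at 0 in all libraries. The part of these cells in the rise of the class II, interferon and chemokine genes was not tested. Among the 6 tested neutrophil markers Lcn2 alone was called (1.56, adjusted p = 0.00737), which is also an acute phase protein made by hepatocytes, and neither of 2 tested B and plasma cell markers was called by limma, edgeR or DESeq2 or passed an unadjusted p under 0.05.

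Markers of damaged hepatocytes and several genes outside the lists were among the largest rises. Ubd (chr17:37193892-37196095), the ubiquitin-like modifier FAT10, held 38.2 to 105 (median 75.8) normalized counts with NDMA and from 1.08 to 53.6 (median 3.53) with saline. Apart from D215012 at 53.6 no saline liver exceeded 6.36. The log2 fold change was 3.73 (SE 0.522, adjusted p = 0.00198), or 4.24 without D215012. Ly6d, an epithelial surface protein, was at 1.98 (adjusted p = 0.0318) and Lgals3, galectin-3, at 1.30 (adjusted p = 0.0202), which made 3 calls among 9 tested genes of the list, against 5 without D215012 and 1 without D202009. The call of Ly6d was lost in 11 and that of Lgals3 in 2 of the 15 removals.

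Cox6b2, a cytochrome c oxidase subunit best known from testis, ran from 65.9 to 188 (median 122) with NDMA against 2.12 to 117 (median 5.36), where D215012 at 117 was the saline maximum and the next value 8.23. Its log2 fold change was 3.77 (SE 0.601, adjusted p = 0.00346). Spink1, a trypsin inhibitor of the acute response, rose by 2.62, the non-coding Snhg15 by 3.37 and Ddit4l, a relative of the mTOR inhibitor Ddit4, by 2.64. For these 3 genes the saline maximum was D215012 as well, at 337, 48.6 and 15.1 normalized counts. Cbr3, a carbonyl reductase driven by Nrf2, differed in this: it was at 0 in D215012, its saline values ended at 3.53 and its NDMA values ran from 6.61 to 28.8 (median 16.04), without overlap. The log2 fold change of Cbr3 was 2.53 (SE 0.43, adjusted p = 0.00346), and it was the only one of 21 tested Nrf2 targets called by limma, against 2 higher and 1 lower by edgeR. Without D215014 limma called 3 of these targets higher and 3 lower, and without D215012 2 higher. S100a6, a calcium-binding partner of annexins, also separated all 15 libraries, at 46.3 to 95.3 (median 63.6) against 10.6 to 36.9 (median 20.3), with a log2 fold change of 1.67 (SE 0.241, adjusted p = 0.00198).

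**Figure D2:**
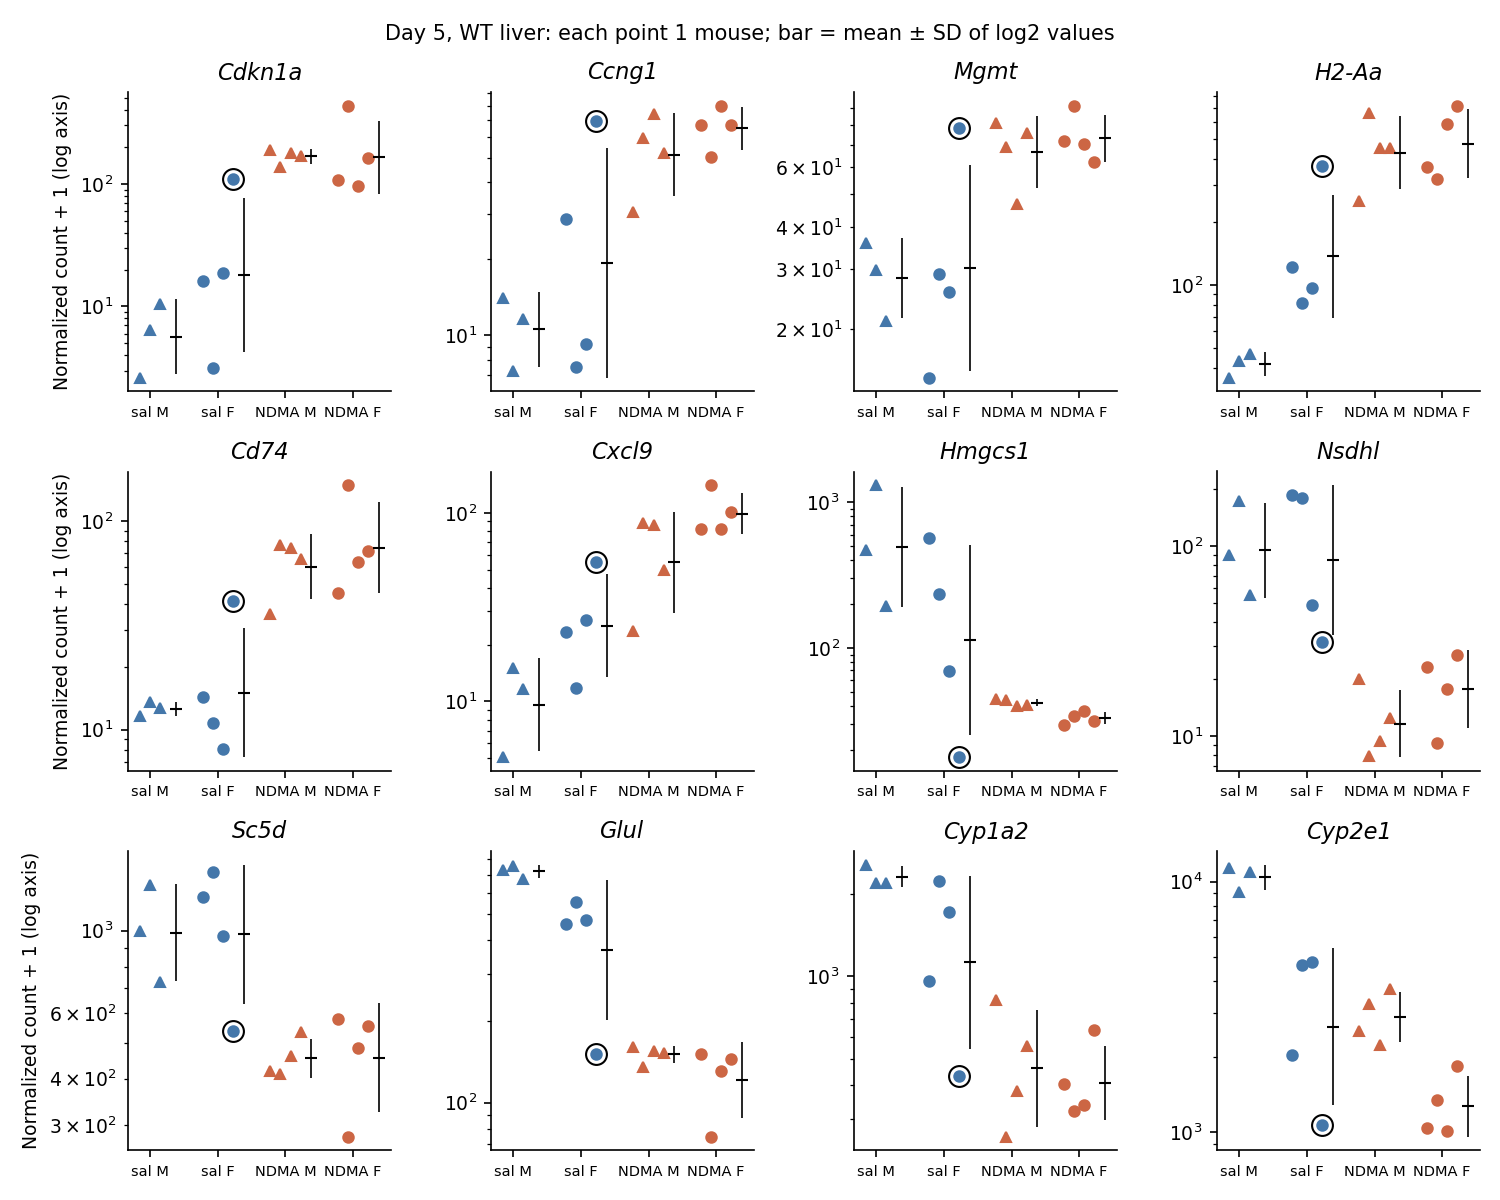
Normalized count + 1 (log axis) of 12 named genes in each of the 15 livers, by treatment and sex (sal, saline; M, males as triangles; F, females as circles); the bar is the mean ± SD of the log2 values and the ringed point is the saline library D215012. In Cdkn1a, Mgmt, H2-Aa and Cd74 the NDMA points lie above every saline point but the ringed one, and in Glul and Hmgcs1 below.

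Cholesterol synthesis held 8 of the 12 largest falls among called genes. Of 24 tested genes, which run from acetyl-CoA to cholesterol and include the regulators of the pathway, 10 were called lower and none higher, with a median of -1.79. Hmgcs1 (chr13:119690379-119708260), the synthase that makes HMG-CoA, held 28.7 to 43.4 (median 37.5) normalized counts in NDMA livers and from 16.8 to 1312 (median 235) in saline livers. The 8 NDMA values lay close together, whereas the saline values spread widely, and D215012 at 16.8 was the lowest of all 15. Without it the lowest saline value was 68.2, above every NDMA liver. The means were 36.6 ± 5.46 against 408 ± 445 (SD, n = 8 and 7) and the log2 fold change -2.60 (SE 0.633, adjusted p = 0.0355), or -3.11 (adjusted p = 0.000437) without D215012. Its call was lost in 9 of the 15 removals, with an adjusted p of up to 0.1.

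Further down the pathway, Fdps (-2.34) makes farnesyl diphosphate, and Cyp51 (-3.07), Msmo1 (-2.92), Nsdhl (-2.60), Hsd17b7 (-1.84) and Sc5d (-1.11) process lanosterol and the sterols after it. Nsdhl (chrX:72918557-72958514), the sterol dehydrogenase, held 6.89 to 25.7 (median 14.1) normalized counts with NDMA and from 30.2 to 185 (median 88.7) with saline. Its groups did not overlap in any of the 15 libraries, D215012 included at 30.2. Its log2 fold change was -2.60 (SE 0.402, adjusted p = 0.00273). Of the regulators, Insig1, which holds SREBP in the endoplasmic reticulum, was at -2.39 (adjusted p = 0.0479). Srebf2, the transcription factor of the pathway, stood at -1.24 (adjusted p = 0.275) and the epoxidase Sqle at -2.93 (adjusted p = 0.106), and neither passed.

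Counts of this list moved with the setting more than those of the class II genes. Without D215012 17 members were lower, by edgeR 21 and in males 19, while without D202009 5 were and with log2 reads as a term none. The calls of Insig1 and Fdps were lost in 10 and 13 of the 15 removals. The list median kept its sign, at -0.96 with log2 reads as a term and -2.08 without D215012. Aacs, which makes acetoacetyl-CoA for lipid synthesis outside mitochondria, also fell, by 2.16 on the log2 scale (adjusted p = 0.0496), from a highest saline value of 17.95 normalized counts. That call was lost in 9 of the 14 removals that tested it (highest adjusted p = 0.141) and with log2 reads as a term (-1.57, adjusted p = 0.278).

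Promoter stretches are shown for 4 members that were called lower. The CCAAT box, bound by the factor NF-Y that acts beside SREBP, was present in 17 of 17 cholesterol genes with a window, against 37.5% of all 27025 promoters and 41.2% of those of genes tested. The sterol element TCACNCCAC was present in 1 of the 17, Hmgcs1, against 1.22% of promoters. In these stretches (RefSeq, GRCm38.p6, 5′ to 3′ on the strand of the gene) capitals mark CCAAT, its complement ATTGG, or the sterol element.
Hmgcs1, chr13:119690101-119690330, plus strand: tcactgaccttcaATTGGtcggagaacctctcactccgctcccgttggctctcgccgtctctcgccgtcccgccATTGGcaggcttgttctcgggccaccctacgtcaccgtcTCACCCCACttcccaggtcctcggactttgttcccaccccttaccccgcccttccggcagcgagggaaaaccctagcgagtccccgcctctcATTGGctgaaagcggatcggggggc
Msmo1, chr8:64733609-64733758, minus strand: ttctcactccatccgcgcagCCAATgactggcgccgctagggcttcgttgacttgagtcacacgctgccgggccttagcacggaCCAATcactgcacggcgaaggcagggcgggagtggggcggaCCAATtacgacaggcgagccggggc
Nsdhl, chrX:72918392-72918520, plus strand: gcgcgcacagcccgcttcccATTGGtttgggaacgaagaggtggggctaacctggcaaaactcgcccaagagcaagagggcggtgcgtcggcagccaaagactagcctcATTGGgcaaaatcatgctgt
Cyp51, chr5:4104702-4104746, minus strand: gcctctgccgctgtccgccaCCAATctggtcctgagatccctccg

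Pericentral hepatocyte genes also fell. Of 17 tested, 10 were called lower and none higher, with a median of -1.13, and the count was 10 without D215012, 12 by edgeR, 11 in males, 8 without D202009 and 1 with log2 reads as a term. Glul (chr1:153899944-153909723), the glutamine synthetase of the innermost ring of hepatocytes, held 73.8 to 159.6 (median 147) normalized counts with NDMA and from 151 to 756 (median 551) with saline. D215012, at 151, lay inside the NDMA range and the other saline livers at 459 or more. The means were 137 ± 27.6 against 542 ± 209 (SD, n = 8 and 7), with a log2 fold change of -1.91 (SE 0.245, adjusted p = 0.00164), or -2.14 without D215012, and Glul was the member still called with log2 reads as a term, at -1.49 (adjusted p = 0.0276). Slc1a2, a glutamate transporter of the same cells, was at -3.01 (adjusted p = 0.0202) and Oat, ornithine aminotransferase, at -1.84 (adjusted p = 0.00334). Cyp2e1 (chr7:140763739-140774987), which activates NDMA, ran from 1009 to 3719 (median 2037) against 1068 to 11307 (median 4788). Its saline values differed by sex, with 11307, 9106 and 10958 in males and 2026, 4648, 4788 and 1068 in females. In NDMA males the values were 2532, 3259, 2231 and 3719 and in NDMA females 1038, 1344, 1009 and 1843, below every saline value of the same sex but that of D215012, the last saline female given. The log2 fold change of Cyp2e1 was -1.42 (SE 0.285, adjusted p = 0.00897).

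In the list of P450 enzymes of drug metabolism 8 of 31 were called lower and none higher, with a median of -0.49. Without D202009 4 were lower and with log2 reads as a term none. Cyp1a2, which oxidizes caffeine and aromatic amines, was at -1.86 (adjusted p = 0.00407), Cyp2a5 at -1.56 (adjusted p = 0.00523) and Cyp2c29 at -1.21 (adjusted p = 0.0115). Cyp1a2 and Cyp2e1 belong to the pericentral list too, and the Cyp2c genes share much sequence, so that their reads may be split among them. Of 21 genes of bile acid synthesis and transport 7 were called lower, with a median of -0.50 (6 without D202009 and 1 with log2 reads as a term), among them the synthesis enzymes Cyp27a1 (-1.17), Cyp39a1 (-0.99) and Hsd3b7 (-0.94) and the uptake carriers Slc10a1 (-1.10) and Slco1a4 (-1.11). Cyp27a1 and Slco1b2 count in the pericentral list as well. Cyp7a1, the rate-limiting enzyme of the main route, was at 0.11 (adjusted p = 0.837).

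Among periportal and urea cycle genes 1 of 20 was called, with a median of 0.11. It was Cps1, the mitochondrial enzyme that starts the urea cycle, at -1.0 (SE 0.275, adjusted p = 0.0486), a call lost in 10 of the 15 removals with an adjusted p of up to 0.141. Its NDMA values ran from 566 to 2647 (median 1737) and its saline values from 2440.1 to 4867 (median 2677), and the lowest NDMA value was that of the shallow D215014. Without D215014 4 periportal genes were higher and 3 lower, without D215012 2 were higher and 1 lower, and without D202009 none was called. No test was made of the difference between the pericentral and periportal lists.

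**Figure D3:**
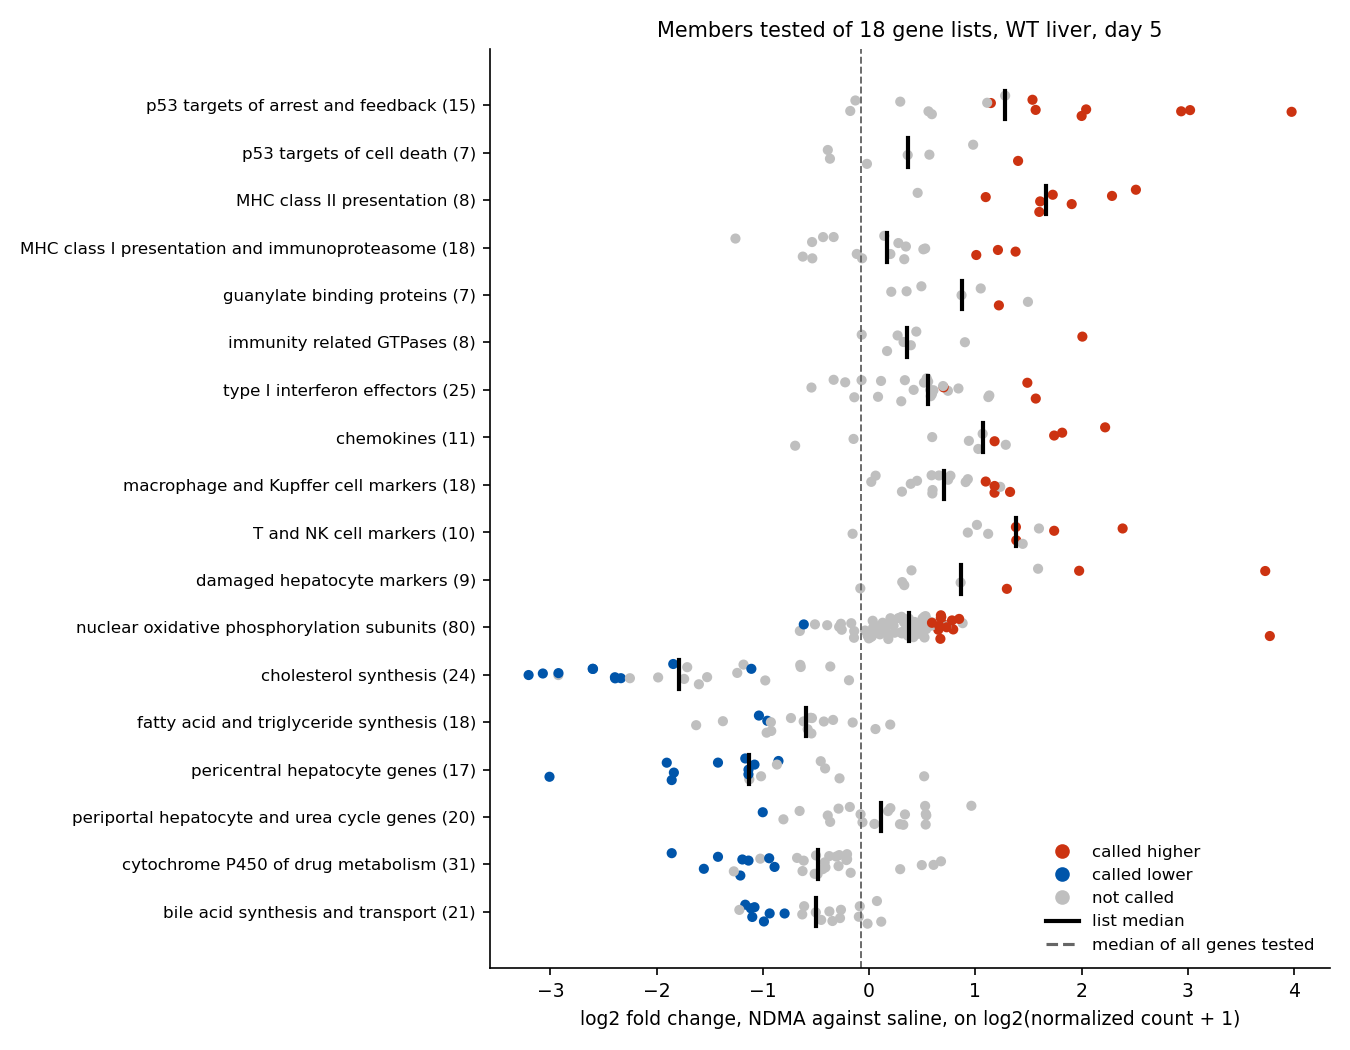
Log2 fold change, NDMA against saline (x axis, on log2(normalized count + 1)), of the tested members of 18 gene lists (rows, number tested in parentheses); red points were called higher, blue lower and grey not called, the black bar is the list median and the dashed line the median of all genes tested, -0.07. Cholesterol synthesis (median -1.79) and pericentral genes (-1.13) lie to the left, MHC class II (1.67), T and NK cell markers (1.38) and p53 targets of arrest (1.28) to the right.

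Lipid genes outside sterol synthesis were counted in 3 lists. Fatty acid and triglyceride synthesis had 2 of 18 genes lower (median -0.60), Gpam, the first acyltransferase of triglyceride synthesis (-1.04, adjusted p = 0.0221), and the desaturase Fads1 (-0.96, adjusted p = 0.0352), against 5 without D215012 and none without D202009. Fatty acid oxidation had 1 of 30 lower (median -0.10), against 2 without D215012 and 4 without D215014. In the lipoprotein list of 18, Apoc2, the activator of lipoprotein lipase (1.15, adjusted p = 0.00402), and the fatty acid carrier Fabp2 (1.41, adjusted p = 0.00346) were higher, and Lpl, the lipase itself (-0.93, adjusted p = 0.0155), and Mttp, which loads lipid onto apolipoprotein B (-0.76, adjusted p = 0.0345), lower. The calls of Gpam, Fads1, Lpl and Mttp were lost in 5, 10, 2 and 10 of the 15 removals.

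Nuclear subunits of oxidative phosphorylation had 14 of 80 genes higher and 1 lower, with a median of 0.37. Apart from Cox6b2 the called rises were small, at most 0.85 for the complex I subunit Ndufa5, whose normalized counts ran from 1152 to 2451 (median 1709) with NDMA against 770.0 to 1318 (median 845) with saline, and 0.79 for Atp5j2 of the ATP synthase, while Sdha, the flavoprotein of complex II, was the member that was lower, at -0.62 (adjusted p = 0.0498). The count moved widely, to 23 higher without D215012, 7 higher and 3 lower by edgeR, 43 higher and 4 lower in males, 2 higher without D202009 and none with log2 reads as a term. Cytosolic ribosomal proteins had 1 of 67 higher, Rpl32 at 0.65 (adjusted p = 0.0428), with a median of 0.27, and 4 higher without D215012, 10 without D215014 and 20 in males. Acute phase proteins had calls in both directions, with Lcn2 and Saa3 (1.75, adjusted p = 0.0286) higher and the fibrinogen chain Fgg (-0.69, adjusted p = 0.0428) lower of 25, and a median of -0.10. The number lower moved with single libraries, to 5 without D215012, 7 without D215014 and none without D202009, and was 4 by edgeR and 9 in males, while 1 or 2 were higher in each of these. The calls of Saa3, Rpl32 and Fgg were lost in 8, 11 and 11 of the 15 removals.

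Of the 38 genes of cell division and DNA replication Prc1, a spindle midzone protein, was called (1.13, adjusted p = 0.0345), with a median of 0.04. Myc, the growth-driving transcription factor, fell by 1.89 on the log2 scale (adjusted p = 0.0399). In males it held 72.4, 45.3 and 54.1 normalized counts with saline and 3.47, 4.59, 8.49 and 8.31 with NDMA, without overlap. In females it held 9.83, 9.73, 9.41 and 5.03 with saline and 4.41, 0, 9.58 and 9.80 with NDMA, which overlapped. Its call was lost in 10 of the 15 removals. In the annexin and S100 list of 16, S100a6, S100g (1.22) and Anxa1 (0.93) were higher, against 6 genes without D215012, 6 without D215014, 1 without D202009 and 1 with log2 reads as a term. Glutathione S-transferases had 1 of 19 lower, Gsta3 (-0.76, adjusted p = 0.0246), branched-chain amino acid catabolism 2 of 23 lower, Aldh6a1 (-0.81, adjusted p = 0.0271) and Mccc1 (-0.79, adjusted p = 0.0345), and tubulins 1 of 10 lower, Tuba4a (-0.77, adjusted p = 0.0332). The integrated stress and unfolded protein list of 22 had Gdf15 higher and the chaperone Hspa5 lower (-0.71, adjusted p = 0.0374), and the 22 hepatocyte plasma proteins had Plg, plasminogen, lower (-0.72, adjusted p = 0.0492). The call of Gsta3 was lost in 6 of the 15 removals of 1 library, those of Aldh6a1, Prc1, S100g, Mccc1, Tuba4a, Anxa1, Hspa5 and Plg in 8 to 12, and none of these 9 passed with log2 reads as a term. Without D215012 4 stress genes and 5 plasma proteins were lower. With limma none was called among 19 liver transcription factors, 15 genes of the growth hormone and IGF axis, 16 of the tryptophan to NAD pathway or 10 oncofetal genes. At an unadjusted p under 0.05 these lists held 1, 2, 6 and 3 genes, against 1549 of all 8654. By edgeR each list had 1 call, while DESeq2 called 1, 2, 1 and 3. Igf1 stood at -0.04 (adjusted p = 0.927) and Afp at 0.86 (adjusted p = 0.0808).

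Stellate cell and fibroblast markers had 2 of 20 called lower, with a median of -0.50. Ecm1, a matrix protein made by hepatocytes too, ran from 13.6 to 32.8 (median 25.5) with NDMA against 20.1 to 187 (median 97.6), with a log2 fold change of -1.88 (SE 0.363, adjusted p = 0.00708), or -2.20 without D215012. The proteoglycan Dcn, the most abundant gene of the list, was at -0.89 (adjusted p = 0.0287), a call lost in 9 of the 15 removals with an adjusted p of up to 0.0871. With log2 reads as a term the list had no call and a median of -0.03. The summed level of the list was 859 to 1295 normalized counts with NDMA and 939 to 2090.3 with saline. Endothelial markers had no call of 17 by limma and 1 by edgeR and by DESeq2, with Clec4g at 0.20 (adjusted p = 0.59). Cholangiocyte markers had none of 9 by any of the 3 tools, with Tff3 at 1.59 (adjusted p = 0.0954) and 1.91 (adjusted p = 0.0139) without D215012. At an unadjusted p under 0.05 with limma these lists held 3 and 1 genes, against 1549 of all 8654. Red cell precursor markers had 1 of 10 lower, or 3 without D215012, with a median of -0.81 that went to 0.03 with log2 reads as a term. Kidney markers were at or near 0, since 4 of 9 measured (Kap, Umod, Slc34a1 and Slc12a1) had no read in any library and the sum of the list was at most 3.47 normalized counts.

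Both sexes were examined apart because sex coincides with batch. In the 7 males 678 of 8492 genes (7.98%) were higher and 455 (5.36%) lower, and in the 8 females none of 8726 (0%) was called by limma, with 453 at an unadjusted p under 0.05. Without D215012 females had 5 calls, all higher: Ubd, Cox6b2, Spink1, the surface antigen Ly6a and the trefoil peptide Tff3. The difference between the sexes was tested as a treatment by sex term in limma, which called no gene with all libraries (488 at an unadjusted p under 0.05) or without D215012 (313). Differences of group means had the same sign in both sexes for the genes described first, with 4.89 in males and 3.19 in females for Cdkn1a, 3.36 and 1.78 for H2-Aa, -3.55 and -1.78 for Hmgcs1 and -2.26 and -1.61 for Glul. D215012 and D215014 both lie in the female groups.

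Changes at day 5 were set beside those of the same genotype at days 1 and 2, each against its own saline mice. In 2 of the 47 day 1 libraries the sex genes went against the label, and a saline library of day 2, D215004, had the highest Cdkn1a of its group. At day 1 9.19% and at day 2 6.23% of genes were called in WT, against 3.61% at day 5, or 3.95% higher and 2.66% lower without D215012, in groups of other sizes. The day 2 libraries came from the same batches as those of day 5, 200710Eng and 200724Eng, and the day 1 libraries from 191212Eng, 200803Eng and 210901Eng. Time and batch therefore cannot be told apart in the differences from day 1. Of the genes tested at both times, 81 of 190 called higher at day 5 (42.6%) were also called higher at day 1, which is 20.0% of the 405 of day 1, and 31 of 117 lower (26.5%, and 8.93% of the 347 of day 1). With day 2 the shared genes were 108 of 191 higher (56.5%, and 38.6% of day 2) and 71 of 118 lower (60.2%, and 28.6% of day 2). The difference between the day 5 and day 1 responses passed for 279 of 8903 genes (3.13%), 114 more positive and 165 more negative at day 5, and that between day 5 and day 2 for 4 (0.0449%), with 591 at an unadjusted p under 0.05. Those 4 were Slc16a6 (difference 2.79), a monocarboxylate transporter, and G6pc (1.45), the phosphatase that releases glucose, on the positive side, and Nsdhl (-2.28) and the mevalonate kinase Mvk (-2.51) on the negative. Without D215012 the day 5 against day 2 difference passed for 16 genes, or 8 without D215004 as well, and the day 5 against day 1 difference for 433.

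Cholesterol synthesis differed from day 1. Its median was -0.14 at day 1, -0.47 at day 2 and -1.79 at day 5, with 2, 0 and 10 members lower, and the day 5 against day 1 difference was negative and called for 14 of 21 members, or 15 without D215012. Against day 2 it was called for 2 of 21, at a median difference of -1.32, or for 6 without D215012 and the day 2 saline library D215004. Msmo1 went from 0.00 at day 1 and -0.84 at day 2 to -2.92 at day 5, a difference from day 1 of -2.90 (adjusted p = 7.52e-06). The difference was -2.79 for Nsdhl and -2.88 for Sqle. MHC class II genes went the other way, with medians of 0.59, 0.66 and 1.67 and 4, 2 and 7 members higher, and 3 of 8 passed the difference from day 1, or 5 without D215012. The difference from day 2, whose libraries share batches with day 5, passed for none of the 8, at a median of 0.94. Without both D215012 and D215004 it passed for 1. H2-Aa stood at 0.64, 0.70 and 2.51 at the 3 times, a difference from day 1 of 1.84 (adjusted p = 0.00111). T and NK cell markers had medians of 0.75, 1.13 and 1.38, and 1 of 9 passed a positive difference from day 1, or 2 without D215012. Macrophage and Kupffer cell markers had medians of 0.49, 0.21 and 0.70, and 0 of 18 passed it, or 1 without D215012. The part of these cells in the class II difference was not tested.

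Among other genes with large differences from day 1 were Acot3 (2.10), a peroxisomal thioesterase, and the antisense transcript 1600020E01Rik (2.02) on the positive side, and Hamp (-3.12), the iron hormone hepcidin, on the negative. Hamp was at 2.53 at day 1 and at -0.59 (adjusted p = 0.652) at day 5, where NDMA values ran from 116 to 5914 (median 1479). Nuclear oxidative phosphorylation subunits passed a positive difference from day 1 for 13 of 80 members, or 20 without D215012, at a median difference of 0.39. Their medians were -0.01, 0.39 and 0.37 at days 1, 2 and 5, with 1, 22 and 14 members higher. None passed a difference between days 5 and 2 (median -0.05), also without both D215012 and the day 2 saline library D215004. Acute phase proteins had 10 of 24 higher at day 1, and 6 of 24 passed a negative difference at day 5. For the p53 targets of arrest no member passed a difference from day 1 or day 2, with medians of 1.5, 0.89 and 1.28 and 11, 8 and 8 members higher, and for the pericentral genes none either, with medians of -1.29, -1.49 and -1.13 and 15, 12 and 10 lower. Guanylate binding proteins had 6, 5 and 1 members higher, a difference that passed for none of 7 at a median of -1.06 against day 1.

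**Figure D4:**
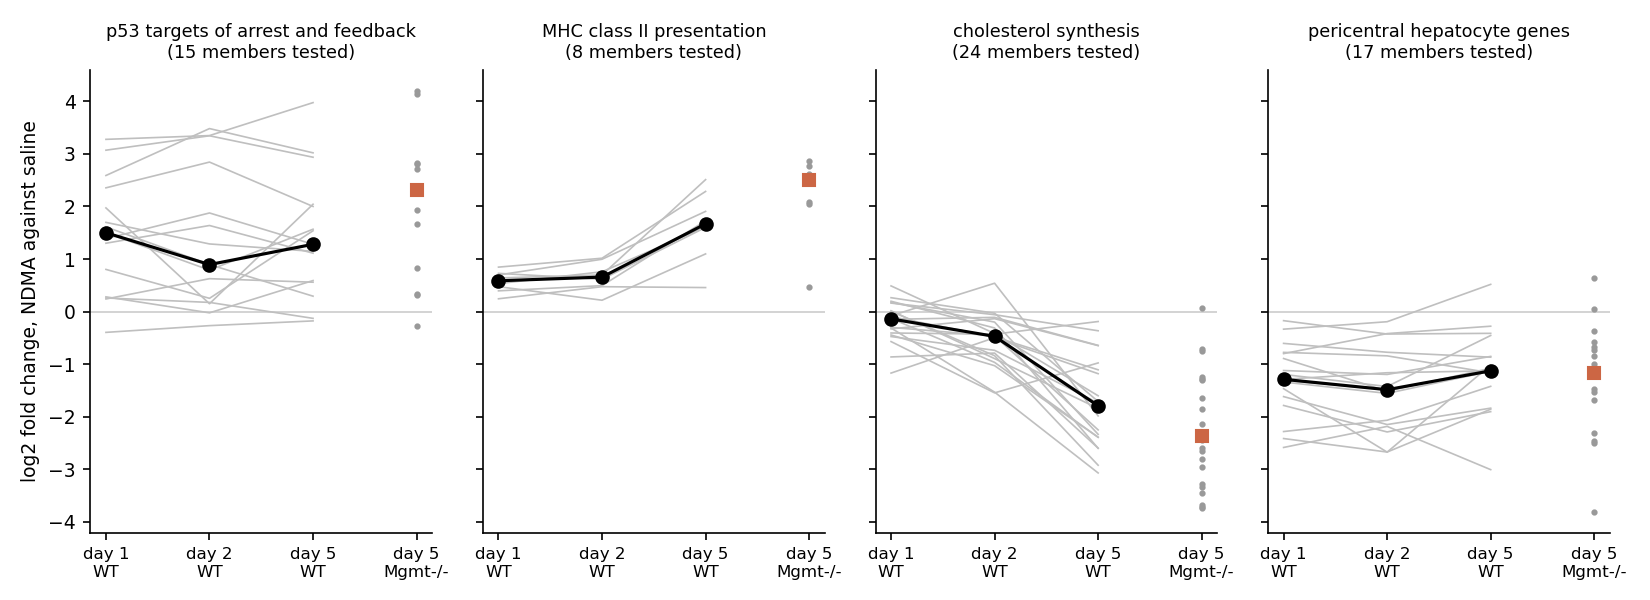
Log2 fold change, NDMA against saline (y axis), of the members of 4 gene lists in WT livers at days 1, 2 and 5 after the second dose (x axis; grey lines are genes, black points list medians) and in Mgmt-/- livers at day 5 (grey points are genes, the orange square the median). Cholesterol synthesis falls from a median of -0.14 at day 1 to -1.79 at day 5 and MHC class II goes from 0.59 to 1.67, while the p53 and pericentral medians stay between 0.89 and 1.5 and between -1.49 and -1.13.

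The same interval was compared between genotypes, with whole reads of both refitted together in edgeR because the deposited values were normalized by genotype. By limma within the Mgmt-/- file 17.8% of genes were called at day 5, with 2 saline livers described below left out. In WT the share was 3.61%, or 3.95% higher and 2.66% lower without D215012. Of the 190 genes higher in WT 134 (70.5%) were higher in Mgmt-/- too, 15.5% of the 863. Of the 120 lower in WT 76 (63.3%) were lower there, 12.8% of the 596, and 1 gene was called in opposite directions. The difference between the responses passed for 211 of 9070 genes (2.33%), 84 more positive and 127 more negative in WT. All Mgmt-/- livers of day 5 were in batch 191212Eng and no WT liver of day 5 was, so that genotype and batch cannot be told apart. The comparison left out 2 Mgmt-/- saline livers in which kidney markers averaged 4432 and 4983 normalized counts. The difference passed for 75 genes with them and 253 without D215012. Cholesterol synthesis had no member past this difference, with medians of -1.79 in WT and -2.37 in Mgmt-/-, and among the class II genes 1 of 8 did, with medians of 1.67 and 2.50, or none without D215012.

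Interferon-responsive GTPases differed between the genotypes. The difference was negative and called for 7 of 8 immunity related GTPases (medians 0.36 in WT and 1.98 in Mgmt-/-), 4 of 7 guanylate binding proteins (0.87 and 3.06) and 8 of 25 type I interferon effectors (0.56 and 1.57), and without D215012 for 7, 4 and 7. Markers of 2 immune cell classes moved with them: the difference was negative and called for 3 of 10 T and NK cell markers (medians 1.38 and 2.78) and 4 of 18 macrophage and Kupffer cell markers (0.70 and 1.34), or 2 and 3 without D215012. The neutrophil list went the other way, with a positive and called difference for 5 of 6 markers and a negative one for Lcn2 (medians 0.56 in WT and -2.02 in Mgmt-/-), the same counts as without D215012. The part of these cells in the difference was not tested. Ubd rose by 3.27 in WT and 6.97 in Mgmt-/- (difference -3.70, adjusted p = 0.0151, edgeR), and the acute phase protein Orm2 had a difference of -3.83, Tff3 of -3.40 and Gm4841 of -4.07. On the positive side were genes whose fitted change in Mgmt-/- was negative and in WT between -0.69 and 0.54, with differences of 6.32 for Prg2 and 5.40 for Camp, granule proteins of eosinophils and neutrophils, 6.28 for A1bg and 4.44 for Serpina9. Of the 15 p53 targets of arrest 2 passed, both more negative in WT, and 1 without D215012.

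Length of the transcript moved with the change. The longest annotated transcript (GENCODE vM21) had a median of 3121 bases over the genes tested, 98.8% of which had a length, 1552 over the genes called higher and 2792 over those called lower. With the genes cut by length into 5 groups from shortest to longest, the median log2 fold change was 0.19, -0.08, -0.15, -0.15 and -0.22, and the shortest group held 105 of the genes called higher and 10 of those called lower. In males these medians ran from 0.37 to -0.21 and in females from 0.07 to -0.20. With log2 reads as a term they ran from 0.25 to 0.07. With the shallow D215014 left out and the other libraries thinned to about 631832 reads each they ran from 0.25 to -0.10. The part of this pattern in the results of the lists was not tested.

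**Figure D5:**
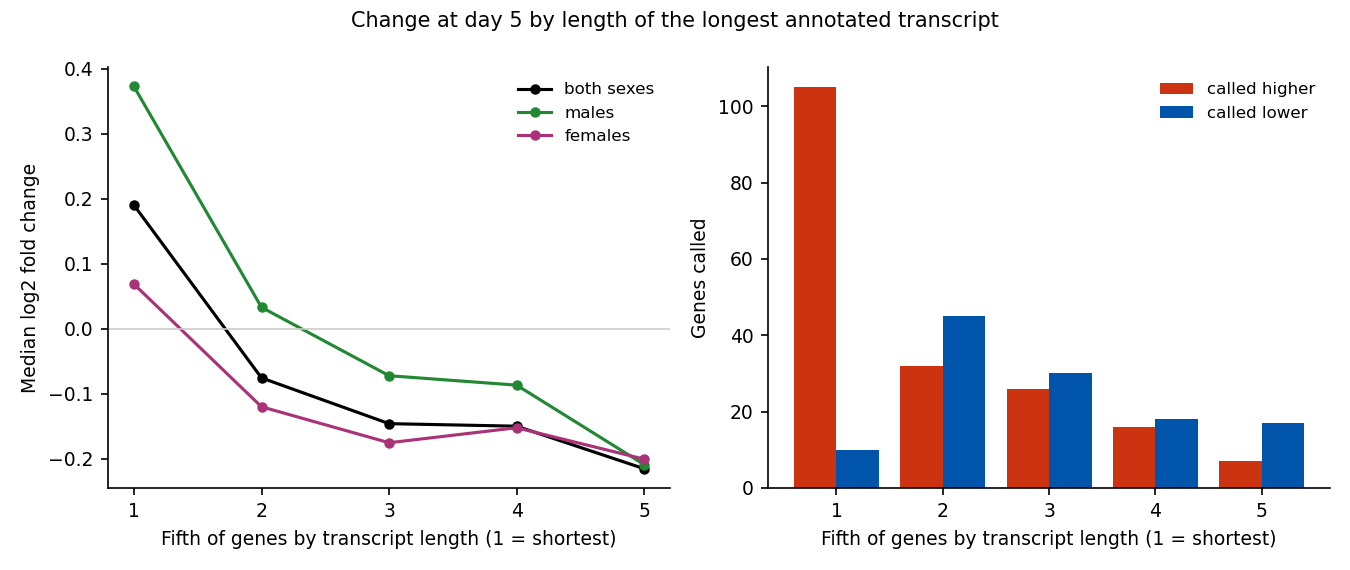
Left, median log2 fold change (y axis) of genes in 5 groups by length of the longest annotated transcript (x axis, 1 = shortest) for both sexes together, males and females; right, genes called higher (red) and lower (blue) per group. The shortest group has a median of 0.19 and 105 genes called higher, and the longest a median of -0.22 and 7.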

How the data were processed

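Liver RNA of single mice was sequenced by 3′DGE with primers that carry molecular identifiers. Per the study's methods, reads were aligned with STAR to GRCm38/mm10, genes counted with ESAT and values normalized with DESeq2. The deposited values were taken to be counts divided by DESeq2 size factors. Tool versions are not given in the sources used here. The deposited signal is therefore a normalized count, and in the 15 libraries of day 5 100% of values were whole multiples of a step per library (tolerance 0.001), which gave back the reads. The members and gene lists were chosen with earlier results of these data known.

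Genes with a mean of at least 5 over the 15 libraries were fitted with limma 3.58.1 (R 4.3.3, trend and robust) on log2(normalized count + 1), with treatment and batch as terms, and p-values were adjusted by Benjamini-Hochberg. Differences between times used all WT libraries of days 1, 2 and 5 in limma, and between genotypes edgeR 4.0.16 (quasi-likelihood, TMM) on recovered reads, since the 2 files were normalized separately. DESeq2 1.42.0, other pseudocounts, filters and scalings, array weights and removals of libraries were tried. The labels give 1 mouse per library but no litter, and the p-values measure the spread between these mice. No pair of libraries of the same treatment agreed within counting noise (lowest chi-square per gene 3.5). NDMA libraries, and so the saline D215012 against them, were not compared with saline libraries in this way. Precision follows the depth, 202626 to 2131042 reads. Called genes were named by rank within the comparison or list, together with Mgmt, Cyp2e1 and Cdkn1a. The values of some list members are not reported here, but counts and medians include them. Uncalled members given for contrast were chosen after their values were seen. On data simulated for the day 5 comparison (7550 genes) limma recovered 98.7% of changes of log2 2 and 37.2% of log2 1. Positions are from GENCODE vM21 and promoters from RefSeq, both on GRCm38. Tables and figures were made with matplotlib 3.10.9, numpy 2.4.6 and pandas 2.3.3 under Python 3.11.15.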

Additional observations from a re-analysis of the deposited data

Results flagged for a closer look

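Of 184 groups of values examined, 21 (11.4%) had a lowest or highest library separated from the rest by more than Dixon's 95% limit for the group size, on log2 values for genes, where chance gives about 1 in 20. The saline library D215012 accounted for 9 of them: its position between the saline and NDMA levels was 0.85, and its values were 53.6 normalized counts for Ubd, 117 for Cox6b2, 40.2 for Cd74, 15.1 for Trp53cor1, 151 for Glul, 21.8 for Slc1a2, 334 for Oat and 416 for Hsd3b7.

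The shallowest library, NDMA female D215014, accounted for 10 of them. Its values were 435 normalized counts for Cdkn1a, 582 for Fabp2, 41.0 for Slc16a6, 16.4 for Slfn2, 566 for Cps1, 73.8 for Glul, 279 for Sc5d and 16.4 for Msmo1, and 0 for Insig1 and Myc. NDMA males D202012 and D202013 had 1 each, Ccl5 at 45.1 and Hsd17b7 at 5.74.

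Responses that differed between times, by limma's test of the difference, were those of Acot3 (2.10, adjusted p = 0.0108), 1600020E01Rik (2.02, 0.000788), Prok1 (1.92, 0.0296), H2-Aa (1.84, 0.00111), Hamp (-3.12, 0.0159), Msmo1 (-2.90, 7.52e-06), Sqle (-2.88, 0.009) and Nsdhl (-2.79, 9.41e-07) for day 5 against day 1, in log2 units with adjusted p-values. For day 5 against day 2 they were those of Slc16a6 (2.79, 0.0464), G6pc (1.45, 0.0464), Nsdhl (-2.28, 0.0277) and Mvk (-2.51, 0.044). Between WT and Mgmt-/- at day 5, by edgeR, they were those of Prg2 (6.32, adjusted p = 0.000179), A1bg (6.28, 0.00881), Camp (5.40, 0.000179), Serpina9 (4.44, 0.0106), Gm4841 (-4.07, 0.000801), Orm2 (-3.83, 0.0372), Ubd (-3.70, 0.0151) and Tff3 (-3.40, 0.0031).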

How the results depend on the processing

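No named gene of the 94 called in the day 5 comparison reversed in any alternative, and 55 stayed called in every removal of a library. The 312 calls became 150 without the batch term, 629 by edgeR, 607 with filterByExpr, 738 by DESeq2, 1190 with array weights, 1133 in males, 0 in females, 794 without libraries under 300000 reads, 40 with log2 reads as a term, 603 with thinned reads, 1119 without D215012 and the shallow library, and 5 in females without D215012, the last 4 chosen after seeing the data. Removing 1 library gave 116 to 794 calls. The day 5 against day 2 difference, 4 genes, became 1 with a mean of at least 20, 2 with equal totals, 16 without D215012 and 8 without D215012 and D215004. The day 5 against day 1 difference, 279, became 433 without D215012, and the WT against Mgmt-/- difference, 211, became 75 with all libraries kept. The removals of D215012 from these differences were also chosen after seeing the data. The other alternatives stayed within 1.5 times. The cause was not tested, beyond fewer libraries where some were removed. No paired analysis was possible because the replicate names are unique to each mouse and pair no libraries across groups. Depth limits low genes most in D215014, and males had no overlap of depth between treatments.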
